A study of Homo sapiens with 4 samples.

Results

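This account compares 2 RNA sequencing libraries gene by gene: HEK293T cells re-expressing PBRM1 with the P1048R change, and the same cells re-expressing unaltered PBRM1 (WT). HEK293T is a transformed human embryonic kidney line, and in the cells used here PBRM1 had been disrupted with CRISPR. A plasmid for GFP-tagged PBRM1 was transfected into both, and RNA was taken 48 h later. The series holds 4 libraries, 1 per construct, and the other two carried the changes T1202K and C1233W. The disrupted locus, the GFP tag and the transient transfection are therefore shared by all 4 libraries. Genes entered the comparison when they reached at least 1 CPM (count per 1000000 scaled reads) in the P1048R or the WT library, which 15737 of the 58735 genes in the table did. With 1 library per construct there is no replicate check, so every difference below is a difference between these 2 libraries and carries no p-value.

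PBRM1, also called BAF180, is the defining subunit of PBAF, a form of the SWI/SNF chromatin remodelling complex. It carries a row of bromodomains, which bind acetylated lysines, followed by BAH domains and an HMG box. BAH (bromo-adjacent homology) domains are protein interaction modules found in many chromatin proteins. The changes in the 3 mutants are named as BAH domain mutations in the series. PBRM1 is a frequent target of inactivating mutations in clear cell kidney cancer.

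PBRM1 transcripts were abundant in both libraries, at 22768 CPM in WT (212792 reads) and 8805 CPM in P1048R (105120 reads). The WT library thus held 2.59 times the level of P1048R, and the T1202K and C1233W libraries stood at 15262 and 60509 CPM. Gene counts do not separate the plasmid transcript from that of the edited locus. The amount of PBRM1 RNA and the P1048R change differ together between the 2 libraries and cannot be told apart here. The other PBAF-specific genes were closer: ARID2 had 68.4 CPM in WT and 75.9 in P1048R, PHF10 had 244 and 203, and BRD7 had 256 and 181.

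The libraries held 10246250 counted reads (WT) and 11205322 (P1048R), spread over 26007 and 26302 genes. All 9 markers fixed for HEK293 cells were detected in both, with summed levels of 1402 and 978.5 CPM. All 4 blood markers were under 1 CPM in both libraries, with CD3E and HBB at 0. The 8 mature kidney tubule markers summed to 52 CPM in WT and 33.25 in P1048R. Of these, 6 were under 1 CPM in both, and UMOD and SLC34A1 were at 0. LRP2 was lower (49.54 and 28.98 CPM) and CUBN higher (16 and 44 reads). The 5 fibroblast markers summed to 42.2 CPM in WT and 22.03 in P1048R, with COL1A2 and DCN at 0. The 4 endothelial markers summed to 3.21 and 2.68 CPM, with CLDN5 higher (6 and 23 reads) and KDR lower (23 and 8 reads). The 5 keratinocyte and carcinoma markers summed to 9.84 and 7.20 CPM, with KRT6A at 0. The 2 liver markers summed to 0.321 and 1.51 CPM, and of them ALB was higher, at 2 and 18 reads.

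In all, 1207 of the 15737 genes (7.67%) passed a rule of size: a ratio of at least 2-fold whose 95% counting interval excluded equality. Of these, 720 were higher in P1048R (4.58% of the genes compared) and 487 were lower (3.09%). Ratios are given as log2 of P1048R over WT, with library sizes scaled by TMM factors (trimmed mean of M values), so that 1 is 2-fold higher and −1 is 2-fold lower. The split depends on the scaling: 59.7% of the genes past the rule were higher with TMM, 84.4% with total counts and 41.9% with upper-quartile factors. Medians of gene groups are therefore stated as a distance from the all-gene median (−0.04 with TMM, 0.19 with total counts and −0.17 with upper-quartile factors). Past the rule, 122 of the higher genes and 57 of the lower genes differed by at least 4-fold.

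**Figure D1:**
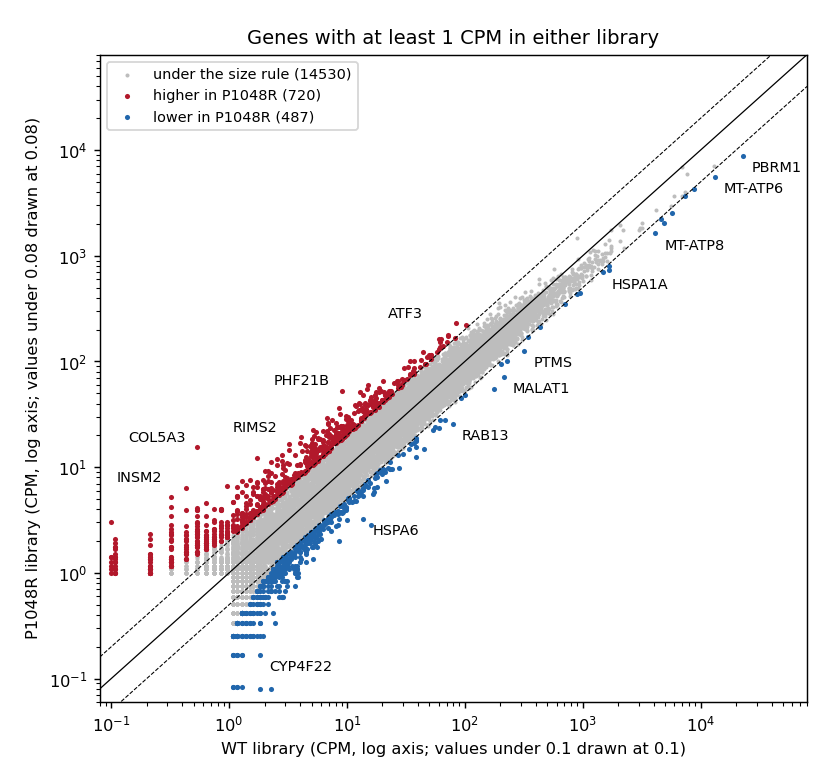
CPM in the WT library (horizontal, log axis) against CPM in the P1048R library (vertical, log axis) for the 15737 genes compared. The solid line marks equality and the dashed lines 2-fold; the 720 higher genes lie mostly at low to middle levels, and most genes of the highest levels lie on or below the solid line.

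The genes that stood highest in P1048R were mostly of low level in WT. COL5A3, a collagen V chain on chromosome 19 (9959561 to 10010471), had 5 reads in WT and 184 in P1048R, a log2 ratio of 4.71 (3.60 to 6.49). INSM2, a zinc finger repressor of neuroendocrine cells encoded by a single-exon gene on chromosome 14 (35534042 to 35537054), had 4 and 76 reads, or 0.428 and 6.37 CPM. ETV2, an ETS factor of blood and vessel development on chromosome 19 (35641745 to 35644871), had 0.321 CPM in WT and 5.19 in P1048R (log2 3.81, 2.40 to 6.33). All of these levels are low, and their intervals span several-fold.

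At higher levels the ratios were better determined. PHF21B, a PHD finger protein, had 9.10 CPM in WT and 52.9 in P1048R (log2 2.53, 2.21 to 2.88). FSD1L, a fibronectin and SPRY domain gene, had 12.8 and 51.0 CPM (log2 1.99, 1.71 to 2.29). CELSR3, an atypical cadherin of axon guidance, had 14.98 and 60.1 CPM (interval of the log2 ratio 1.74 to 2.28). DUSP8, a MAP kinase phosphatase on chromosome 11 (1554044 to 1571920), had 8.56 and 36.2 CPM. Its neighbour KRTAP5-1, a hair keratin-associated protein (1584342 to 1585283), had no read in WT and 36 in P1048R, which against a floor of 3 reads per library is at least 9.39-fold higher (the counting interval of its log2 ratio starts at 2.86). GABBR2, a GABA-B receptor subunit, had 3.21 and 16.5 CPM, and CARMIL3, an actin capping regulator, had 1.28 and 7.37 CPM. POMZP3, a fusion gene that shares sequence with POM121 and ZP3 and whose counts are uncertain for that reason, had 2.25 and 11.3 CPM. The set held the non-coding RNAs PVT1, at 6.74 and 28.98 CPM, and AC004982.2, at 0.107 and 2.09 CPM. SLC4A9, an anion exchanger of kidney, had no read in WT and 17 in P1048R, at least 4.44-fold higher (interval from 1.69 on the log2 scale).

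The lowest genes in P1048R included 4 mitochondrial transcripts and the heat shock gene HSPA6, which are described with their lists below. MALAT1, a nuclear long non-coding RNA on chromosome 11 (65497688 to 65506516), had 214 CPM in WT and 71.5 in P1048R (log2 −1.58, −1.70 to −1.47). RAB13, a GTPase of tight junction and neurite traffic, had 78.8 and 25.8 CPM (log2 −1.61). PTMS, the small acidic chromatin protein parathymosin, had 320 and 126 CPM (log2 −1.34, −1.43 to −1.25). PALM3, a paralemmin, had 38.5 and 12.6 CPM, and SAMD9, an interferon-inducible antiviral gene, had 21.5 and 7.37 CPM. PLEKHA4, a phosphoinositide-binding regulator of Wnt signalling, had 8.56 and 2.01 CPM. CNN1, the smooth muscle protein calponin, fell from 23 reads to 4. GAP43, a growth cone protein, fell from 34 reads to 9, and S100A4, a calcium-binding protein, from 12 reads to 1. CYP4F22, a skin fatty acid hydroxylase, had 17 reads in WT and 2 in P1048R.

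**Figure D2:**
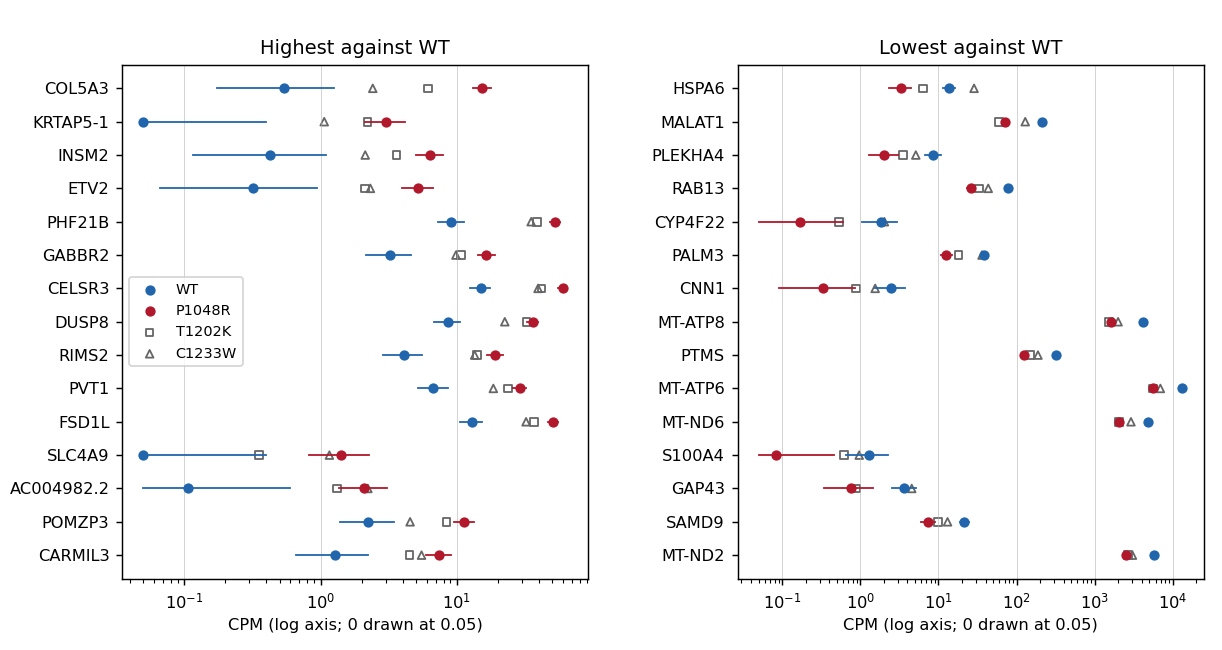
CPM (log axis) of the 15 genes highest and the 15 lowest in P1048R against WT, with 95% Poisson intervals for these 2 libraries and the T1202K and C1233W levels as open symbols. For COL5A3 the 4 libraries run from 0.535 CPM in WT through 2.42 in C1233W and 6.18 in T1202K to 15.4 in P1048R.

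Since the genes were chosen on the P1048R and WT libraries, the values in the other two mutants are a description only, and all share the WT library as reference. PHF21B had 39.03 CPM in T1202K and 35.2 in C1233W, and CELSR3 had 41.9 and 39.6. HSPA6, the strictly inducible HSP70, had 13.8 CPM in WT, 3.27 in P1048R, 6.36 in T1202K and 28.5 in C1233W. GAP43 was at 3.64 CPM in WT, 0.754 in P1048R, 0.883 in T1202K and 4.55 in C1233W.

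Beyond the top genes, 138 gene lists and symbol-defined families were read, of which 129 had at least 5 members measured. In 40 of the 129 no member passed the rule of size, and 47 had a median within 0.1 of that of all genes. The median was above that of all genes in 53 and below it in 76. A list is described below where at least 3 members passed at no less than 2 times the background percentage, or where its median was among the 10 highest or the 10 lowest. This left 26 lists, and 25 of them kept the sign of their median under all 9 alternative settings. The exception is the sodium channels. The background percentage covers genes of all levels, and the share past the rule was larger at low levels. Of protein-coding genes other than numbered zinc finger genes, 8.74% were higher and 6.28% lower at a mean of 1 to 10 CPM. Above 100 CPM the shares were 0.388% and 0.733%.

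**Figure D3:**
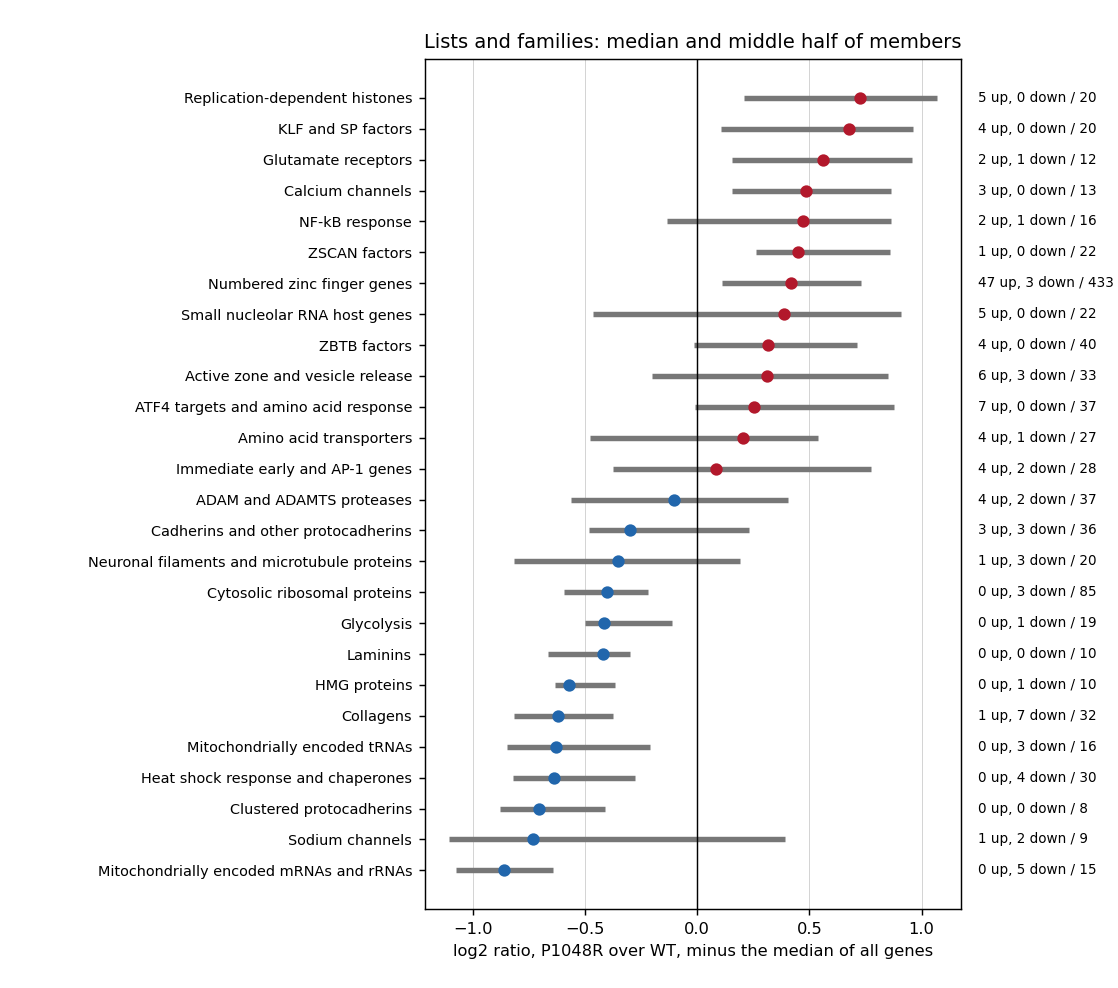
Median log2 ratio of each of the 26 lists relative to the median of all genes (point) with the middle 50% of its members (bar), and the number of members past the rule in each direction. Medians run from −0.86 for mitochondrially encoded mRNAs and rRNAs to 0.73 for replication-dependent histones.

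Transcription factor families with zinc fingers stood on the higher side. Zinc finger proteins with a ZNF number form the largest family of human transcription factors, and many carry a KRAB domain that recruits a repressor complex to DNA. Of 433 measured ZNF genes, 47 passed the rule upward and 3 downward, and 349 lay above the median of all genes (list median 0.42). That is 11.6% past the rule. Of all genes, 7.67% passed, 4.58% upward and 3.09% downward. ZNF416 had 6.96 CPM in WT and 25.9 in P1048R (log2 1.89, 1.51 to 2.31). ZNF467 had 6.74 and 21.9 CPM, ZNF213 had 12.8 and 39.9, and ZNF256 had 9.84 and 30.2. ZNF474 had 1 read in WT and 13 in P1048R, and ZNF860 had 5 and 22. The 3 lower members were ZNF154 (2.03 and 0.838 CPM), ZNF410 (2.78 and 1.34) and ZNF738 (19.3 and 9.46). The number of higher members ranged from 32 to 84 over the alternative settings.

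Many ZNF genes sit in clusters on chromosome 19, but the shift was present on and off that chromosome. The 200 on chromosome 19 had a median of 0.47 with 165 above the median of all genes, and the 233 elsewhere had 0.38 with 184 above. The 731 other protein-coding genes of chromosome 19 had a median of 0.02, with 34 higher (4.65%) and 24 lower (3.28%). The classes also differed within bands of level. Among genes with a mean of 10 to 30 CPM, the 189 ZNF genes had a median of 0.47 and the 2823 other protein-coding genes 0.11. Between 30 and 100 CPM the medians were 0.43 (122 ZNF genes) and 0.03 (4450 others). Above 100 CPM they were 0.13 (27 genes) and −0.16 (2318 others). Against the shared WT library, the ZNF median was 0.27 in T1202K and 0.20 in C1233W, with 34 and 14 members higher.

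**Figure D4:**
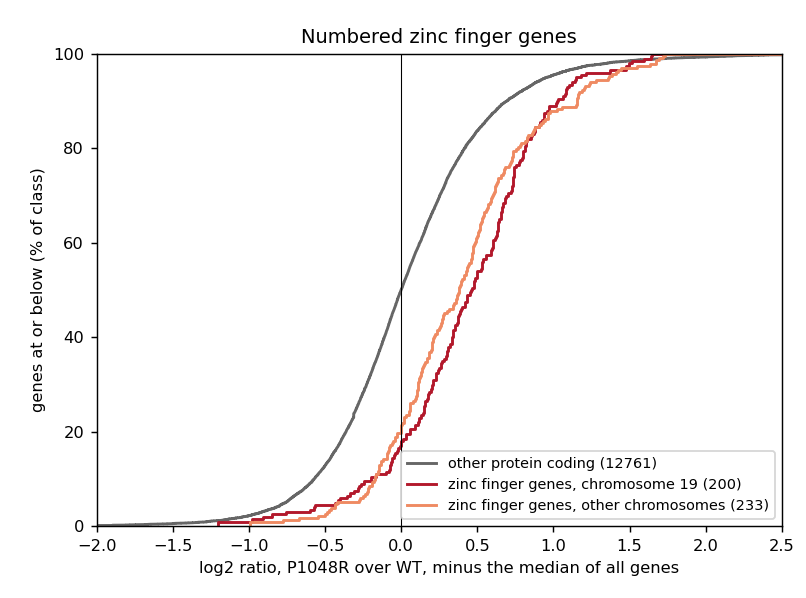
Cumulative share of genes (vertical, percent of each class) at or below a log2 ratio of P1048R over WT relative to the median of all genes (horizontal). The curves of the 200 ZNF genes on chromosome 19 and the 233 elsewhere lie to the right of that of 12761 other protein-coding genes, with medians of 0.47, 0.38 and 0.00.

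The medians of related factor families were shifted in the same sense. ZSCAN and ZKSCAN genes, which join a SCAN dimerization domain to zinc fingers, had a median of 0.45 with 20 of 22 above the median of all genes, although ZSCAN9 alone passed the rule (20.01 CPM in WT and 41.5 in P1048R). Of 40 ZBTB genes, which pair zinc fingers with a BTB domain, 30 lay above that median (list median 0.32). None passed downward and 4 passed upward, which is 10% past the rule and near the 7.67% of all genes. The 4 higher genes were ZBTB7C (2.35 and 5.36 CPM), ZBTB48, a telomere-binding factor (32.5 and 68.8), ZBTB17, the MYC partner MIZ1 (21.9 and 45.5), and ZBTB2 (46.0 and 94.9).

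KLF and SP factors, which bind GC boxes and CACCC motifs, had the second highest median, 0.68 over 20 members, with 4 higher and none lower. KLF10, a TGF-beta inducible repressor, had 32.9 CPM in WT and 88.5 in P1048R (log2 1.43, 1.25 to 1.62). KLF15 had 6.42 and 14.2 CPM, KLF16 had 11.98 and 24.7, and SP5, a Wnt target, had 7 and 31 reads. Members under 2-fold included KLF6 (50.5 and 95.1 CPM) and SP1 (132 and 205 CPM). KLF15 and KLF16 were under 2-fold once a trend with GC content and transcript length was removed.

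Among the proteins that package DNA, replication-dependent histones had a median above that of all genes, and variant histones and HMG proteins had medians below it. Replication-dependent histone genes lack introns and mostly lack poly(A) tails, and they are made in S phase. Of 71 listed, 20 reached 1 CPM, their median was 0.73, 17 lay above the median of all genes and 5 passed upward. That is 25% past the rule at a median level of 4.95 CPM. Of other protein-coding genes with a mean of 1 to 10 CPM, 8.74% were higher and 6.28% lower. HIST1H2AC had 6.31 CPM in WT and 15.2 in P1048R, HIST1H2BJ had 4.49 and 10.9, HIST1H4H had 1.93 and 6.199, and HIST1H3H had 12 and 40 reads. HIST2H4A had 6 and 55 reads and has a near-identical copy, so its count is uncertain. Summed over the 20 genes the levels were 104.5 and 159.8 CPM, which is low for this class. Variant histones, which are made throughout the cell cycle, had a median of −0.21 with 7 of 10 below the median of all genes and none past the rule, and summed to 1941 and 1698 CPM. HMG proteins, small abundant chromatin proteins that bend DNA or bind nucleosomes, had a median of −0.57, and 9 of 10 lay below the median of all genes. HMGN5, a nucleosome-binding protein that loosens linker histone, had 229 CPM in WT and 102 in P1048R (log2 −1.17, −1.27 to −1.07). It was under 2-fold with total counts and after removal of the GC and length trend. HMGB1 had 504 and 319 CPM, HMGN2 had 779 and 500, and HMGA2 had 130 and 77.7.

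The heat shock list was one of the lowest. Heat shock proteins are chaperones that fold or hold other proteins, and HSF1 induces many of them through heat shock elements, arrays of the unit GAA and its inverse. The 30 members summed to 22140 CPM in WT and 12440 in P1048R, and 25 of them lay below the median of all genes (list median −0.64). HSPA6 had 129 reads in WT and 39 in P1048R (log2 −2.07, −2.63 to −1.55). HSPA1A, an inducible HSP70 with a near-identical neighbour HSPA1B, had 1474 and 697 CPM (log2 −1.08). HSP90AB1, the constitutive HSP90, had 4573 and 2234 CPM, and HSP90AA1, the inducible one, had 7419 and 3709. The last 3 lie just past the 2-fold limit and were under it with total counts. The co-chaperone genes DNAJB1 (193 and 115 CPM) and DNAJA1 (524 and 283), the small HSPB1 (59.6 and 35.9), HSPH1 (455 and 250) and HSPA8 (1342 and 744) were lower by less than 2-fold. BAG3, another HSF1 target, had 78.4 and 81.2 CPM. Between 1 and 6 members were past the rule downward over the alternative settings. Against the shared WT library the list median was −0.34 in T1202K and −0.34 in C1233W.

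Promoter windows of the list are shown because heat shock elements are a known feature of several of its genes. RefSeq (GRCh38.p14) gave a window of 300 bases, 250 before and 50 after the start, for 26 of the 30 members. The motif searched was GAANNTTC, a pair of facing heat shock units, which reads the same on both strands. It was present in 11 of the 26 (42.3%), in 4.59% of the 10949 compared genes with a window and in 6.87% of all 27305 windows. Of the 4 lower genes, HSPA6 and HSPA1A held it, while HSP90AB1 and HSP90AA1 had no match in this window. The median ratio relative to all genes was −0.69 for the 11 members with a match and −0.62 for the 15 without. Members with and without these letters in this window thus had similar medians. Pairs of units facing away from each other were not searched. Each gene had 1 window, so elements at other starts or farther away were not searched either, and what all these contributed was not tested. More than 1 match was found in HSPA6 (2, log2 ratio −2.07), DNAJA1 and HSPA8 (2 each), in HSPB8 (2, log2 ratio −0.15) and in CHORDC1 (3, log2 ratio −0.34). The windows of the 2 lower genes with a match and of 2 abundant chaperones under the rule, DNAJA1 (log2 −0.89) and HSPA8 (−0.85), follow on the strand of the gene, 5′ to 3′, with each match in capitals; these last were picked after their values were seen. HSPA6 is at chr1:161524290-161524589 (plus strand), HSPA1A at chr6:31815293-31815592 (plus), DNAJA1 at chr9:33025023-33025322 (plus) and HSPA8 at chr11:123062087-123062386 (minus).
HSPA6: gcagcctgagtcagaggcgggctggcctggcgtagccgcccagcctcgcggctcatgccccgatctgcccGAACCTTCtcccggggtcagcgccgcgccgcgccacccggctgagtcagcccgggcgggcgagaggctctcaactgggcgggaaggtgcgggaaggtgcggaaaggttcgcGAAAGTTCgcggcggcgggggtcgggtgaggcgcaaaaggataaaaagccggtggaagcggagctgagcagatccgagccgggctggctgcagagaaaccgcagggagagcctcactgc
HSPA1A: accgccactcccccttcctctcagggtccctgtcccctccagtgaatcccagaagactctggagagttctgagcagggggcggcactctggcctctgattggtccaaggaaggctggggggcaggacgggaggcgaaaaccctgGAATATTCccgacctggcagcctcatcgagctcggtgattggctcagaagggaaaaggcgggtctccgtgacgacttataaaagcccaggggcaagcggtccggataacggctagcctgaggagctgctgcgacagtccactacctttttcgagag
DNAJA1: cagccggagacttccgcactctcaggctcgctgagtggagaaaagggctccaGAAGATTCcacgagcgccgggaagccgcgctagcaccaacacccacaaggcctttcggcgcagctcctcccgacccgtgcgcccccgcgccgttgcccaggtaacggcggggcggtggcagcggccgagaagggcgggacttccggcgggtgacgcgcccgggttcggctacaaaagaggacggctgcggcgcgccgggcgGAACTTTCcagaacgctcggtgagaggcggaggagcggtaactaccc
HSPA8: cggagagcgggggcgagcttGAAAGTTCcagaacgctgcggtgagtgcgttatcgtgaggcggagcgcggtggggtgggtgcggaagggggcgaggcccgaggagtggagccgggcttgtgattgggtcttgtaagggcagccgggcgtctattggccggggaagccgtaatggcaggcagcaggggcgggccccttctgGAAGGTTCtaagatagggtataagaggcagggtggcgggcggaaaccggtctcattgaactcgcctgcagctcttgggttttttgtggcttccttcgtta

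Amino acid stress genes were higher in part. ATF4 is the transcription factor of the integrated stress response, and its targets supply amino acids and charge tRNAs. Of 37 measured list members, 27 lay above the median of all genes (list median 0.25), 7 passed upward and none downward. ATF3, a stress-induced repressor, had 84.4 CPM in WT and 232 in P1048R (log2 1.46, 1.34 to 1.57). The aminotransferase GPT2 had 37.2 and 86.5 CPM, the cysteinyl-tRNA synthetase CARS had 49.9 and 114, and TRIB3, a feedback inhibitor of ATF4, had 10.3 and 27.1. SLC7A11 and SLC3A2, the light and heavy chains of the cystine/glutamate exchanger, had 16.5 and 40.7, and 102 and 221 CPM. CBS, of transsulfuration, had 3 and 21 reads. Other targets were close: ASNS, asparagine synthetase, had 2.57 and 2.93 CPM, DDIT3 (CHOP) had 9.95 and 11.2, and PHGDH, of serine synthesis, had 149 and 143. The motif TGATGCAA, a C/EBP-ATF response element, was in the promoter window of 1 of 25 members with a window, against 0.411% of compared genes. That member was CHAC1 (log2 0.63), which did not pass the rule. None of the 4 members past the rule with a window held the motif. Only these exact letters in the window of each gene were searched. Elements with other letters, at other starts or farther away were not counted, and what they contributed was not tested. The list median against the shared WT library was 0.45 in T1202K and 0.88 in C1233W, with 5 and 15 members higher.

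Of 27 amino acid transporters, 4 passed upward and 1 downward (list median 0.20, or 0.09 with upper-quartile factors). Besides SLC7A11 and SLC3A2, the higher ones were SLC6A9, a glycine transporter (2.14 and 6.199 CPM), and SLC43A2, which carries large neutral amino acids (7.06 and 14.8). SLC7A8, another light chain that pairs with SLC3A2, went the other way, from 53.9 CPM in WT to 22.4 in P1048R (log2 −1.27, −1.49 to −1.05).

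Immediate early genes respond within minutes to growth factors and stress, and here they were mixed, with 4 of 28 higher, 2 lower and a median of 0.08, which was 0.33 with a minimum of 5 CPM and 0.02 after removal of the GC and length trend. Higher were ATF3, KLF10 and the nuclear receptors NR4A3 (3.10 and 7.29 CPM) and NR4A1 (5.89 and 12.5). Lower were FOSB (23 and 12 reads) and IER3 (6.53 and 3.10 CPM). In the NF-kB list, 2 of 16 were higher and 1 lower, with a median of 0.47 that became 0.12 without the filter on low levels. RELB, a subunit of the non-canonical pathway, had 4.39 CPM in WT, 16.3 in P1048R, 8.48 in T1202K and 5.90 in C1233W (P1048R over WT log2 1.88, 1.41 to 2.42). NFKBIE, an inhibitor of NF-kB, had 6.96 and 14.7 CPM, and BIRC3, an inhibitor of apoptosis, had 40 and 24 reads.

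RNAs of the translation machinery lay on both sides. Small nucleolar RNA host genes carry snoRNAs in their introns, and many of the spliced hosts belong to the same 5′ terminal oligopyrimidine class as ribosomal protein genes. Of 22 hosts, 5 passed upward and none downward (median 0.39). EPB41L4A-AS1 had 11.7 CPM in WT and 39.03 in P1048R (log2 1.74, 1.44 to 2.06), SNHG12 had 15.7 and 43.1, SNHG15 had 42.1 and 103, SNHG17 had 26.6 and 65.2, and SNHG11 had 6.85 and 14.7. Of 85 cytosolic ribosomal protein genes, 3 passed downward and none upward, and 79 lay below the median of all genes (list median −0.40). Their summed levels were 51230 CPM in WT and 37220 in P1048R. RPS27 had 947 and 443 CPM, RPL23A had 894 and 439, and RPL3L, a muscle paralogue, had 18 and 7 reads. RPS27 and RPL23A were under 2-fold with total counts and after removal of the GC and length trend. RPLP0, often used as a reference gene, had 719 and 592 CPM.

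Transcripts of the mitochondrial genome had the lowest median of the 129 lists, but its members differed among themselves. They are cut from long transcripts of each strand and encode respiratory chain subunits, ribosomal RNAs and tRNAs. Over the 15 mRNAs and rRNAs the median was −0.86, with 5 lower and none higher, and the summed levels were 92480 CPM in WT and 52610 in P1048R. The ATP synthase subunits MT-ATP8 (4142 and 1632 CPM) and MT-ATP6 (13200 and 5556) overlap on the genome and were lowest. MT-ND6, the only mRNA from the light strand, had 4866 and 2054 CPM, MT-ND2 had 5764 and 2519, and MT-ND5 had 8833 and 4323. MT-CO1 had 7732 and 5909 CPM. The ribosomal RNAs did not share the shift: MT-RNR2 had 6909 and 6952 CPM, and MT-RNR1 had 902 and 1458 (log2 0.69, 0.66 to 0.73). Of 16 tRNAs, 3 were lower and none higher (median −0.63): MT-TE (175 and 54.9 CPM), MT-TL2 (45.2 and 14.99) and MT-TH (20.2 and 9.55). After removal of the trend with GC content and transcript length, all 5 lower mRNAs were under 2-fold, with MT-ATP6 at −0.90, and the tRNA median was −0.10. Without the filter on low levels the tRNA median was −0.37. The mRNA and rRNA median against the shared WT library was −0.77 in T1202K and −0.65 in C1233W, and the tRNA median −0.625 and −0.54. The nuclear-retained RNAs MALAT1 (214 CPM in WT and 71.5 in P1048R) and NEAT1 (227 and 124) were also lower in P1048R. MALAT1 had 59.3 CPM in T1202K and 129 in C1233W. What RNA handling contributed was not tested.

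Glycolytic genes had a median of −0.42, and 16 of 19 lay below the median of all genes, but 1 passed the rule. This was SLC2A3, the glucose transporter GLUT3, with 61.6 CPM in WT and 27.7 in P1048R (log2 −1.15). It had 42.1 CPM in T1202K and 145 in C1233W. LDHA, lactate dehydrogenase A, had 1063 and 637 CPM, PGK1 had 421 and 238, and ENO1 had 1669 and 1401. HK2, hexokinase 2, was slightly higher, at 69.1 and 84.4 CPM.

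**Figure D5:**
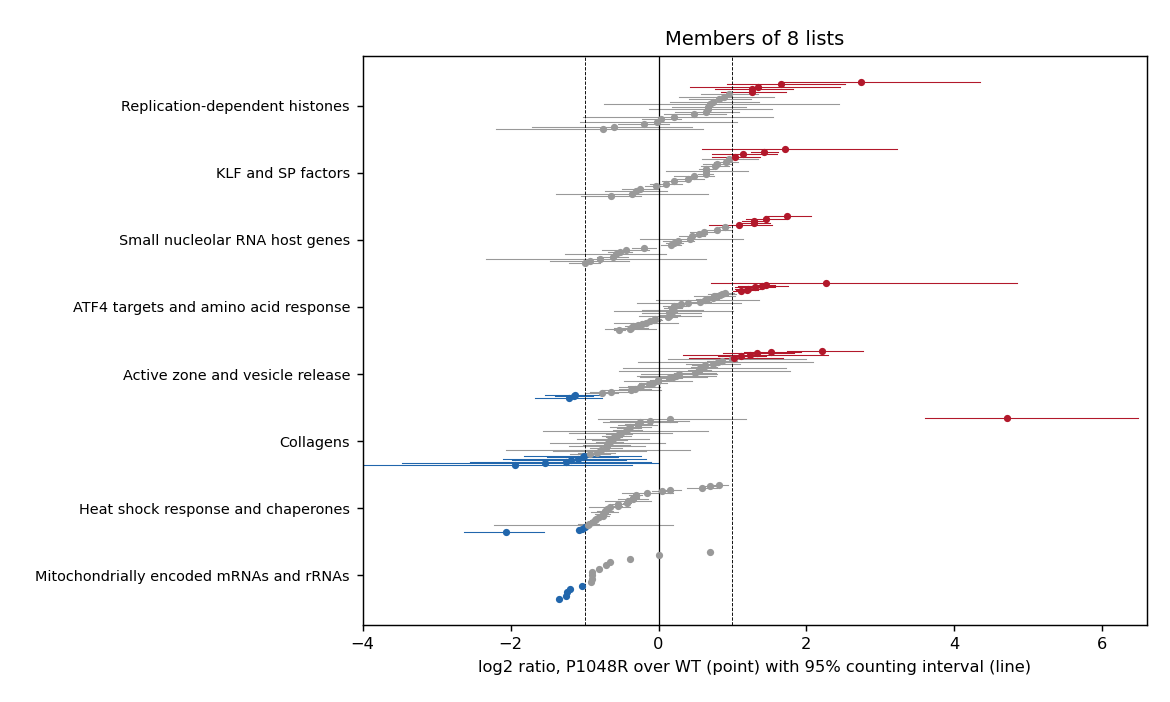
Log2 ratio of P1048R over WT for each measured member of 8 lists (points, with 95% counting intervals as lines; dashed lines mark 2-fold). In the collagen list COL5A3 at 4.71 lies far from the other members, and in the mitochondrial list MT-RNR1 at 0.69 lies opposite to the mRNAs.

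Genes of neurons did not shift as a block. Vesicle release and active zone genes, which place and fuse synaptic vesicles, had 6 of 33 members higher and 3 lower (median 0.31, or 0.19 with a minimum of 5 CPM). The scaffold proteins RIMS2 (4.07 CPM in WT and 19.1 in P1048R), RIMS1 (13 and 40 reads) and ERC2 (11.6 and 25.1 CPM) were higher. So were the fusion proteins STX1A (7.70 and 22.3 CPM, log2 1.52, 1.15 to 1.93) and SNAP25 (5.24 and 13.3), and the vesicle GTPase RAB3A (3.32 and 6.79). SV2A, a vesicle glycoprotein, was lower (36.9 and 16.7 CPM), as were PPFIA4, a liprin scaffold (12.6 and 5.45), and RAB3D (15.6 and 7.12). Neuronal filament and microtubule proteins had a median of −0.35, with 3 of 20 lower. These were GAP43, MAP2 (29 and 14 reads) and the medium neurofilament NEFM (345 and 172 CPM). NEFL, the light neurofilament, had 140 and 78.8 CPM, while TUBB3, the neuronal tubulin, was higher at 6 and 22 reads.

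Channels and receptors were of low level, with medians of 10.38 CPM (calcium channels), 2.74 (glutamate receptors) and 6.02 (sodium channels). In that order, 23.1%, 25% and 33.3% of members were past the rule. Of protein-coding genes other than ZNF genes with a mean of 1 to 10 CPM, 8.74% were higher and 6.28% lower. Voltage-gated calcium channel genes (13 measured) had 3 members higher and none lower, and their median was 0.49. These were CACNB1 (8.03 CPM in WT and 26.0 in P1048R, log2 1.69, 1.33 to 2.08), CACNA2D3 (8.13 and 20.6) and the pore subunit CACNA1C (4.601 and 9.38). Glutamate receptor genes had a median of 0.56 over 12 members. The kainate receptor GRIK4 (18 and 74 reads) and the metabotropic receptor GRM4 (6 and 20) were higher, and the kainate receptor GRIK1 (12 and 5) was lower. Sodium channel genes had a median of −0.73 over 9 members, which became 0.31 with a minimum of 5 CPM, so the direction of this list rests on genes of very low count. SCN8A had 14.7 and 31.7 CPM, whereas SCN2A had 35 and 20 reads and SCN4B 24 and 12.

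Lists of matrix and adhesion genes had medians below that of all genes, with a few members past the rule in the other direction. Collagens are the triple-helical proteins of matrix and basement membrane. Of 32 measured chains, 7 passed downward and 1 upward (median −0.62), and 30 lay below the median of all genes. That is 25% past the rule at a median level of 7.37 CPM. Of protein-coding genes other than ZNF genes with a mean of 1 to 10 CPM, 8.74% were higher and 6.28% lower. COL5A3 was the higher one. COL23A1 had 13 reads in WT and 4 in P1048R, COL16A1 had 12 and 5, and COL6A3 had 19 and 10. COL11A2 had 43 and 24 reads, COL21A1 had 27 and 16, COL4A4 had 38 and 24, and COL3A1 had 97 and 61. Of these 7, all but COL23A1 were under the rule with total counts, and the number of lower chains ranged from 1 to 9 over the alternative settings. COL1A1, a main chain of collagen I, had 30.1 and 15.8 CPM. The 5 fibroblast markers, of which COL1A1, COL1A2 and COL3A1 are also collagens, summed to 42.2 and 22.03 CPM with COL1A2 and DCN at 0, and their part in the collagen values was not tested. The collagen median against the shared WT library was −0.50 in T1202K and 0.02 in C1233W.

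Laminins, the cross-shaped proteins of basement membranes, had a median of −0.42 with none of 10 past the rule. LAMC1 had 261 CPM in WT and 184 in P1048R, LAMB1 had 104 and 74.1, and LAMA1 had 36.6 and 20.02, whereas LAMA3 had 35.8 and 55.3. Cadherins and non-clustered protocadherins, the calcium-dependent adhesion proteins, had 3 of 36 members higher and 3 lower (median −0.30). E-cadherin, CDH1, had 47 and 26 reads, CDHR1 had 19.7 and 8.54 CPM and PCDH17 had 17.8 and 8.13. CELSR3 was higher, as were CDH15 (4 and 27 reads) and PCDH8 (6 and 26). Clustered protocadherins, which label single neurons, had a median of −0.70, but 8 of 48 listed genes were measured and none passed the rule, and without the filter on low levels the median was −0.27. The most abundant, PCDHGA11 and PCDHA10, had 92 and 72, and 69 and 51 reads. Among 37 ADAM, ADAMTS and MMP proteases, which shed proteins from the surface or cleave matrix, 4 were higher and 2 lower (median −0.10, and near 0 with a minimum of 5 CPM). That is 16.2% past the rule at a median level of 8.87 CPM. Of protein-coding genes other than ZNF genes with a mean of 1 to 10 CPM, 8.74% were higher and 6.28% lower. MMP24 had 8 and 33 reads, ADAMTS8 had 11 and 31, ADAMTS10 had 5.78 and 12.2 CPM and ADAMTS6 had 4.71 and 9.80. MMP11 had 32 and 14 reads, and ADAM8 had 31 and 19.

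The other 103 lists had medians between −0.38 and 0.29. Among chromatin lists, 2 of 23 SWI/SNF core and BAF subunits were higher (median 0.03), 1 of 28 Polycomb genes was higher (0.10), and none of 28 lysine methyltransferases passed (0.13). Of 36 HOX cluster genes, 1 was lower (−0.21). Of 33 interferon-stimulated genes, 5 were lower and none higher (−0.22), and of 28 hypoxia genes 1 was higher and 2 lower (−0.12). No member passed among 33 mitosis genes (−0.28), 23 cholesterol synthesis genes (−0.27), 32 DNA repair genes (0.24), 31 DNA replication genes (−0.02) or 78 mitochondrial ribosomal proteins (−0.11). Of 193 centrosome and cilium genes, 16 were higher and 2 lower (0.18), which is 9.33% past the rule and near the 7.67% of all genes.

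The kinds of gene differed in how often they passed. Among 13194 protein-coding genes, 526 were higher and 268 lower, which is 3.99% and 2.03%. Processed pseudogenes, copies of spliced mRNAs put back into the genome, had 9 higher and 72 lower of 354 (20.3% lower, median −0.44). Transcribed unprocessed pseudogenes, which come from duplicated genes, lay on the other side, with 36 higher and 10 lower of 226 (median 0.44). Sense intronic RNAs had 1 higher and 10 lower of 100. Reads of a pseudogene and of its parent gene can be exchanged in counting, so these counts are uncertain.

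Among protein-coding genes, the 2638 with the highest GC content of the transcript had 177 higher (6.71%) and a median of 0.15, and the 2638 with the lowest had 73 higher (2.77%) and a median of −0.01. Genes whose higher level was at least 100 CPM had a median of −0.16 (2655 genes), and those of 20 to 100 CPM had 0.07 (5915 genes). By chromosome, 38 of 602 protein-coding genes on chromosome 16 were higher and 7 lower, and on the X chromosome 5 of 466 were higher and 10 lower (median −0.16). How far level and GC content account for the shifts of abundant lists such as the ribosomal proteins was not tested beyond the alternative settings.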

How the data were processed

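RNA of 4 HEK293T libraries, 1 per PBRM1 construct, had been sequenced. The authors deposited whole-number read counts per gene, without normalization. Per the submitters' processing notes, the tools were Trim Galore, HISAT2 and featureCounts, and the build was hg38. The sources used here give no version, annotation release, strand setting or rule for multiply aligned reads, so antisense, overlapping and near-identical genes are uncertain. All 58735 identifiers matched GENCODE release 29 (GRCh38), which gave coordinates, GC content and transcript length.

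Counts were scaled with TMM factors in edgeR 4.0.16 under R 4.3.3 (0.912 for WT and 1.07 for P1048R), computed from all 4 libraries. The log2 ratio used 0.5 added to each count. Intervals of ratios (Clopper-Pearson, 95%) and of levels (exact Poisson) cover counting error only. A floor of 3 reads equals 0.321 CPM in WT and 0.251 in P1048R. The steps were tested on simulated data. DESeq2 1.42.0 gave size factors for 1 of the 9 alternatives.

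The members and lists were chosen with earlier results of these data known. Named genes are the 15 highest and 15 lowest protein-coding or lincRNA genes by the interval bound nearer 0, up to 6 members past the rule of each described list, and, in lists with fewer than 2 past, the 2 most abundant members. Other members and non-member genes named beside them were chosen after their values were seen. Levels, list medians and member counts of T1202K and C1233W against the same WT library are printed as a description, and differences between mutants were not examined. A result that rests on an item withheld for evaluation is not reported here.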

Additional observations from a re-analysis of the deposited data

How the results depend on the processing

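No leave-one-out check and no test was possible because each construct has 1 library. No paired analysis was possible because the single libraries share no replicate pairs. With total counts in place of TMM, 1236 genes were higher and 229 lower. With a minimum of 5 CPM, 585 of 11942 genes passed, 422 higher and 163 lower, and the sodium channel median turned from −0.73 to 0.31. The shift with total counts follows from the scaling factors. With the minimum of 5 CPM, 622 of the 1207 calls were lost, all of genes under 5 CPM in both libraries. Under all 9 alternatives, 327 of the 1207 genes passed. A set of 116 genes was followed: the 15 highest, the 15 lowest and the members past the rule of the described lists apart from the ZNF list. The ZNF genes and the small families picked after their values were seen are not in this set. Of the 116, 44 passed under each alternative, among them ATF3, CACNB1, CELSR3, COL5A3, HSPA6, KLF10, MALAT1, PHF21B, RELB, STX1A and SLC7A11. Upper-quartile factors ended the call of 18, all of them higher genes such as SLC3A2, ERC2, ZBTB2 and SCN8A. Total counts ended that of 28, all lower, such as NEFM and SLC2A3. At 10246250 and 11205322 reads, genes near 1 CPM rest on few reads, and their intervals span several-fold.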

Other observations

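Several small families outside the lists had members past the rule on 1 side; they were picked after their values were seen and are given as values only. Of 5 Ikaros factors, lymphoid zinc finger regulators, 3 were higher: IKZF4 (9.20 CPM in WT and 24.5 in P1048R), IKZF2 (6.31 and 13.3) and IKZF1 (0.535 and 1.93). Of 7 TIGD genes, which derive from Tigger DNA transposons, TIGD3, TIGD4 and TIGD5 were higher, with TIGD4 at 3.10 and 7.96 CPM. Of 12 THAP genes, whose DNA-binding domain derives from a P-element-like transposase, 3 were higher, with THAP9 at 18.8 and 51.1 CPM (log2 1.44, 1.20 to 1.69). Of 13 DENND genes, exchange factors for RAB GTPases, 3 were higher and 12 had a positive ratio, with DENND2A at 6.21 and 17.9 CPM. Of 18 CFAP genes of cilia and flagella, 4 were higher, led by CFAP53 at 1.71 and 7.20 CPM.

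Duplicated gene copies also had high ratios while their full-length parents did not always share them. Of 6 SMG1 pseudogenes 4 were higher, such as SMG1P2 (2.57 and 12.1 CPM) and SMG1P5 (3.64 and 12.9), whereas SMG1 itself had 337 and 377 CPM. CCT6P1 and CCT6P3 had 9.74 and 28.5, and 5.14 and 22.5 CPM, while the parent CCT6A had 690 and 451. PMS2P3 had 8.13 and 21.5 CPM, and PMS2 35.3 and 42.3. WHAMMP2 (5.24 and 19.6 CPM) and WHAMMP3 (7.17 and 23.4) went with their parent WHAMM (30.4 and 87.0). Of 5 STAG3 copies, 2 were lower, STAG3L5P at 9.42 and 4.52 CPM and STAG3L1 at 2.67 and 0.921, and none was higher. Reads can be exchanged between such copies, and how the counting treated them was not tested.

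Protein-coding genes past the rule in the same direction, next to each other among the genes compared, formed 39 runs, most of 2 genes. Genes under the 1 CPM filter were skipped, so members of a run can have other genes between them. Of the 13194 protein-coding genes compared, 3.99% were higher and 2.03% lower. How many runs such shares give without any clustering was not tested. A run on chromosome 6 (27374615 to 27811300) held 3 higher genes, ZNF391, ZNF184 and HIST1H3H. Among the lower runs were IFIT1 (16.8 and 5.78 CPM) with IFIT3 (28 and 10 reads), both interferon-induced.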
